A study of Culter alburnus with 6 samples.

Results

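The heat shock proteins and their cochaperones of a fish fin cell line were examined here in cells kept with and without Forskolin. Members were rows of the expression table whose best protein match in the NR database carried heat shock, DnaJ, T-complex protein 1, crystallin, BAG family or prefoldin in its name. Of 61608 assembled rows, 129 matched, and 114 of these reached 1 TPM, a transcript level corrected for transcript length and scaled to the same total in every library, in at least 3 of the 6 libraries. The other 15 matched rows stayed below that minimum and were not tested. The cells were TCCF2022, a fibroblast-like line (genotype WT) grown from the caudal fin of Topmouth culter (Culter alburnus). In the F group, 3 libraries came from cells kept for 7 days in 5 μM Forskolin, a compound that switches on adenylate cyclase and so raises cAMP. In the CK group, 3 libraries came from cells kept for 7 days with no treatment, and no solvent control was named. Both groups grew at 27 °C in DMEM/F12 with 10% fetal bovine serum and 5 ng/ml bFGF according to the sample notes. The study's methods give another bFGF level and a lower Forskolin dose for its treated cultures. Its figure caption for the RNA sequencing gives 5 μM for 7 days, the same as the sample notes.

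Molecular chaperones hold unfolded proteins and help them reach their final shape. HSP70 proteins bind short hydrophobic stretches of a client, DnaJ proteins bring the client and trigger the ATP cycle, and nucleotide exchange factors of the HSP110 and BAG families release it. HSP90 then acts on kinases and receptors that are nearly folded, prefoldin hands new actin and tubulin chains to the ring-shaped chaperonin CCT, small heat shock proteins keep damaged proteins from clumping without using ATP, and heat shock factors switch many of these genes on under stress.

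Each difference is given as F minus CK on the log2(TPM + 1) scale, which understates changes of rows with few TPM, with its standard error (SE). It was tested with limma, a linear model fitted to all 37532 rows that passed the minimum, two-sided and with Benjamini-Hochberg adjustment over those rows. Calls were made where the adjusted p fell under 0.05. Of the 114 members, 22 were higher in F cells (19.3%), 11 were lower (9.6%) and 81 were not called. Over all tested rows, 6.15% were called higher and 6.07% lower, and over those with an NR name 8.3% and 7.12%. Members were better expressed than most rows: 85 of them averaged at least 5 TPM, of which 21 were higher (24.7%) and 9 lower (10.6%), against 11.6% and 9.61% of all rows with an NR name at that level. With the further condition of a log2 change beyond 1 in size, 2 members were higher and 5 lower. Of all tested rows, 3.27% were higher and 3.9% lower by that condition. The study's methods set the same size for fold changes from DESeq2, another test, so these counts are not those of the study. The median change over members was 0.10, and over all tested rows it was -0.01. The 3 F libraries all lay above the 3 CK libraries in 40 members and all below them in 15, where 16.4% and 15.7% of all tested rows did so (32.1% in either direction). With 3 libraries a group, an exact permutation test of a single row cannot go below p = 0.1. The cultures were a bulk sample, so fewer cells of a type and less RNA per cell cannot be told apart in any of these values. Of the members, 2 small heat shock protein rows (hspb11 and hspb9) reached the minimum through CK libraries alone, which fixed their direction, and without them 22 of 112 were higher and 10 lower, 4 of these beyond a log2 change of 1. Leaving out CK replicate 2 lowered the counts most, to 5 higher and 4 lower.

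**Figure D1:**
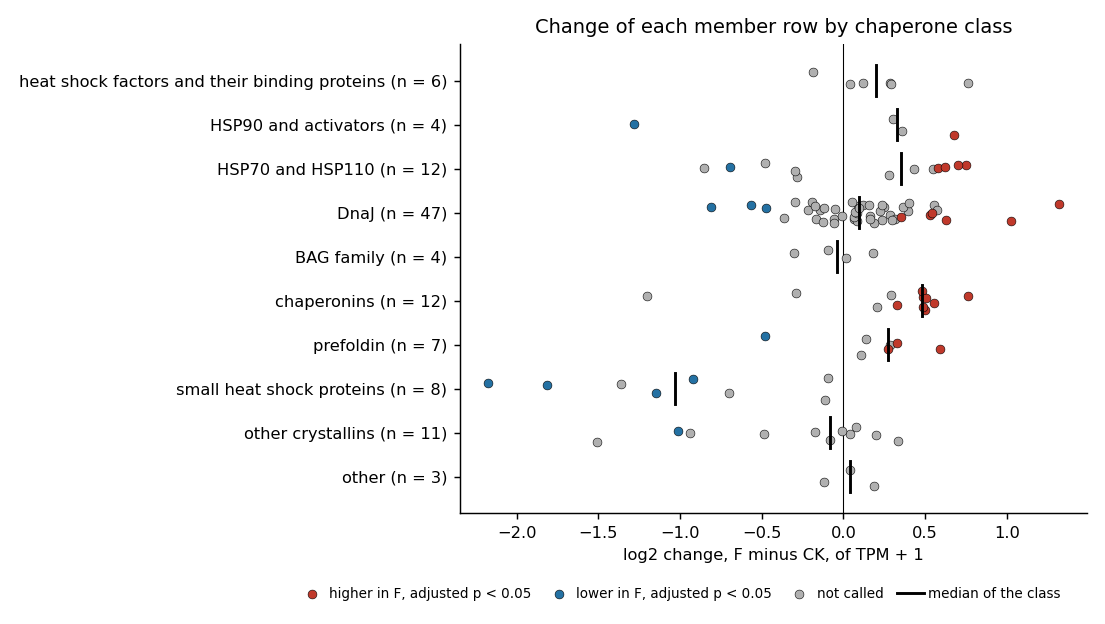
Change of each of the 114 member rows by chaperone class, as log2 change of TPM + 1, F minus CK, on the horizontal axis. Each point is a row, coloured by its call, and each black bar is the median of its class. Chaperonins had a median of 0.48 with 8 of 12 rows higher, where 8.3% of tested rows with an NR name were higher. All 8 small heat shock protein rows lay below 0, of which 2 passed the minimum through CK alone.

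Of the 6 rows for heat shock factors and their binding proteins, 0 were called by limma (at an unadjusted p under 0.05, 1 was higher and 0 lower). Over tested rows with an NR name, 8.3% were called higher and 7.12% lower, so 0 calls among so few rows lie near those shares. With a minimum of 5 TPM, 1 of the 5 rows then tested was called higher. Hsf1, the main switch of the heat response, had 19.3, 23.1 and 16.9 TPM in F cells against 15.5, 15.4 and 16.9 TPM in CK cells, so the groups overlapped (log2 change 0.28 ± 0.13 SE, adjusted p = 0.234). Hsf2, a second factor of that family, had 24.2, 26.3 and 24.9 TPM in F cells against 24.3, 29.2 and 33.3 TPM in CK cells (adjusted p = 0.435), also with overlap. Of the rows for HSBP1, a small coiled-coil protein that binds heat shock factor trimers, hsbp1a had 32.6, 33.4 and 25 TPM in F cells against 21.1, 18.5 and 13.3 TPM in CK cells. Its F libraries lay above its CK libraries, and its log2 change of 0.76 ± 0.19 stood just outside the threshold (adjusted p = 0.0545). The more abundant hsbp1b averaged 312 ± 19.3 TPM in F cells and 287 ± 27.1 TPM in CK cells (SD, n = 3 each). The remaining rows of this class, hsbp1l1 and hsf2bp (a binding partner of HSF2), had log2 changes of 0.04 and 0.29 and were not called.

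Of the 4 rows for HSP90 and its activator, 1 was higher and 1 lower in F cells. The shares over tested rows with an NR name were 8.3% and 7.12%. Hsp90ab1, the constitutive cytosolic HSP90, had 1723, 1998 and 1638 TPM in F cells against 1131, 1121 and 1086 TPM in CK cells. All F libraries lay above all CK libraries, 1.61 times higher by the means, and the log2 change was 0.68 ± 0.10 (adjusted p = 0.0103). Without CK replicate 2, the adjusted p was 0.0557. AHSA1, which speeds the ATP cycle of HSP90, was split over 2 rows. The abundant row, ahsa1b, had 43.1, 51.6 and 39.0 TPM in F cells against 34.1, 33.3 and 35.6 TPM in CK cells, a log2 change of 0.36 that was not called (adjusted p = 0.0974). The scarce row, ahsa1-like, was lower, with 1.44, 0.80 and 1.61 TPM in F cells against 4.30, 5.08 and 4.10 TPM in CK cells (log2 change -1.28 ± 0.24, adjusted p = 0.0206). This call was lost without any 1 of the CK libraries or F replicate 1, at an adjusted p of up to 0.0923. Trap1, the HSP90 of mitochondria, averaged 27.6 ± 3.33 TPM in F cells and 22.1 ± 1.46 TPM in CK cells and was not called (adjusted p = 0.145). No member carried the name of the heat-inducible cytosolic form, HSP90AA1.

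Of 12 HSP70 and HSP110 rows, 4 were higher and 1 was lower in F cells. Among all tested rows with an NR name, 8.3% were higher and 7.12% lower. Hspa8, the constitutive HSC70 of the cytosol, was the most abundant member in every library, with 5365, 5793 and 5095 TPM in F cells against 3382, 3380 and 3232 TPM in CK cells. The groups were far apart, 1.63 times by the means, with a log2 change of 0.70 ± 0.11 (adjusted p = 0.0128). The call was lost without CK replicate 2 (adjusted p = 0.0696), without CK replicate 3 (0.0521) and after quantile normalization, where the change was 0.59 (adjusted p = 0.107). A separate row named hspa8b went the other way, with 49.7, 45.1 and 48.6 TPM in F cells against 82.7, 78.9 and 72.9 TPM in CK cells. It was 0.61 times the CK mean (log2 change -0.70 ± 0.08, adjusted p = 0.00358), and the call held with each library left out. Together, hspa8 and hsp90ab1 made up 54.9 to 56.8% of the TPM of all members in F libraries and 47.0 to 47.8% in CK libraries.

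Hspa13, an HSP70 relative of the endoplasmic reticulum, had 21.2, 24.7 and 21.7 TPM in F cells against 13.6, 11.9 and 13.5 TPM in CK cells. It was the member of this class with the largest called increase (log2 change 0.75 ± 0.10, adjusted p = 0.00784), and the call held with each library left out. Hspa4a, an HSP110-type exchange factor, had 55.2, 59.8 and 44.98 TPM in F cells against 35.5, 34.7 and 35.4 TPM in CK cells (log2 change 0.58, adjusted p = 0.0239). Its more abundant counterpart hspa4b had 191, 218 and 196 TPM in F cells against 167, 164 and 166 TPM in CK cells, and its smaller change of 0.28 was not called (adjusted p = 0.0525). Hspa14, an HSP70 found at ribosomes, was higher, with 28.2, 29.1 and 23.2 TPM in F cells against 17.3, 19.6 and 14.4 TPM in CK cells (log2 change 0.62, adjusted p = 0.0414). The calls of hspa4a and hspa14 were not stable to single libraries: hspa4a lost its call without any 1 CK library or F replicate 1 (adjusted p up to 0.0919), and hspa14 lost its call in each case but the omission of F replicate 3 (up to 0.128).

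Rows that could stand for stress-inducible HSP70 were scarce in both groups. The row named only heat shock 70 kDa protein had 2.14, 2.61 and 1.99 TPM in F cells against 1.69, 1.39 and 1.15 TPM in CK cells, which did not overlap but were not called (adjusted p = 0.325). Hspa1b reached 2.13 TPM in its highest F library and 1.81 TPM in its highest CK library, and was at 0 in 3 of 6 libraries. Hsph1, the HSP105 exchange factor, had 0, 1.10 and 1.18 TPM in F cells against 1.14, 0 and 4.84 TPM in CK cells. A row named hspa8-like had 0, 4.19 and 0 TPM in F cells against 0, 5.76 and 3.53 TPM in CK cells, and the hspa12a rows were not called either. Levels that alternate with 0 in this way between libraries of a group give log2 changes with a wide error, such as -0.48 ± 0.70 for hsph1. Other HSP105 rows stayed under the minimum and were not tested. Of these, a row had 8.16 TPM in CK replicate 3 alone, and another 1.23 TPM in F replicate 2 and 3.69 TPM in CK replicate 3. The last had 0.61, 1.44 and 2.11 TPM in F cells against 0.54, 0 and 0.34 TPM in CK cells. Untested rows named heat shock 70 kDa protein-like and heat shock protein 70, partial, reached 5.58 TPM (CK replicate 2) and 4.13 TPM (CK replicate 3), with 0 in F.

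**Figure D2:**
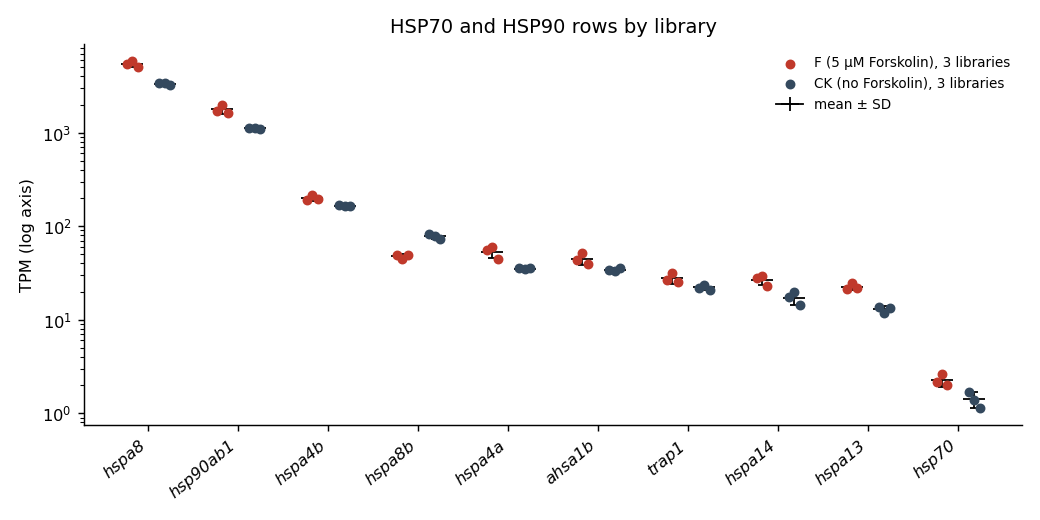
TPM of 10 HSP70, HSP110 and HSP90 rows in each library, on a log axis, F left of CK for each row, with mean ± SD over 3 libraries. Hspa8 and hsp90ab1 are the most abundant rows shown, both higher in F, while hspa8b is the row shown that is lower in F.

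DnaJ proteins formed the largest class, with 47 rows, of which 6 were higher, 3 lower and 38 not called, and their median change of 0.09 lay close to 0. These counts lie near the shares over rows with an NR name, which were 8.3% higher and 7.12% lower. At a mean of at least 5 TPM those shares were 11.6% and 9.61%, so the calls below describe single rows. The changes of uncalled rows ran over the narrow range of -0.36 to 0.58. Among cytosolic type A proteins, which work with HSC70, dnaja2a had 196, 264 and 186 TPM in F cells against 137, 135 and 140.3 TPM in CK cells (log2 change 0.63, adjusted p = 0.0326). Dnaja2b, the row of its paralog, averaged 60.2 ± 8.36 TPM in F cells and 62.5 ± 4.05 TPM in CK cells, with overlap (adjusted p = 0.797). Dnaja4 was 2.40 times higher by the means, with 6.36, 8.73 and 6.65 TPM in F cells against 2.83, 2.99 and 3.25 TPM in CK cells (log2 change 1.03 ± 0.17, adjusted p = 0.0156). Dnaja1, the type A member known for its heat response in mammals, had 25.4, 34.0 and 29.4 TPM in F cells against 24.1, 24.6 and 25.3 TPM in CK cells and was not called (adjusted p = 0.250).

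The largest increase of any member belonged to dnajc5aa, a row for the cysteine string protein that guards the fusion machinery of secretory vesicles. It had 5.47, 6.26 and 4.49 TPM in F cells against 1.38, 1.32 and 2.01 TPM in CK cells, 3.44 times by the means (log2 change 1.32 ± 0.22, adjusted p = 0.0145). Dnajc5, a second row for that protein, had 15.7, 17.1 and 12.6 TPM in F cells against 12.8, 11.4 and 15.3 TPM in CK cells, with overlap. Dnaja3a, a mitochondrial DnaJ protein (log2 change 0.53, adjusted p = 0.0300), dnajc7, which bridges HSP70 and HSP90 (0.54, 0.0312), and dnajc8, found with the splicing machinery (0.35, 0.0488), were also called higher. Dnajb6b was lower and kept its call under every alternative run for single rows (other scalings, filters, pseudocounts, variance priors and single libraries left out), with 15.3, 18.2 and 15.2 TPM in F cells against 30.2, 27.3 and 29.9 TPM in CK cells (log2 change -0.81 ± 0.10, adjusted p = 0.00561). DNAJB6 is known in mammals for holding back the clumping of glutamine-rich proteins. Its other row, dnajb6a, had 59.1, 63.8 and 56.1 TPM in F cells against 55.5, 55.1 and 59.95 TPM in CK cells, with overlap. Dnajb1a and dnajb1b, rows for the classic HSP40 partner of inducible HSP70, were not called, and dnajb1a was nearly level, at 14.2 to 14.4 TPM in F cells and 14.2 to 14.8 TPM in CK cells.

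DNAJB9, DNAJB11, DNAJC1, DNAJC3 and DNAJC10 work in the endoplasmic reticulum, and of their 7 rows 2 were lower and 0 were called higher by limma (3 and 0 at an unadjusted p under 0.05). Over tested rows with an NR name, 7.12% were lower and 8.3% higher at the adjusted p. All 7 rows averaged above 5 TPM, and at that level the shares were 9.61% and 11.6%. No share over all rows was computed at an unadjusted p. The set was picked by hand and does not hold every DnaJ protein of that compartment. Left out were, for example, dnajb12a and dnajb12b, with log2 changes of 0.29 and -0.14, neither called. Dnajb9 had 23.6, 27.3 and 22.1 TPM in F cells against 33.5, 36.9 and 38.8 TPM in CK cells (log2 change -0.56, adjusted p = 0.0213). Its scarcer row dnajb9a had 8.82, 11.65 and 9.15 TPM in F cells against 8.91, 7.36 and 9.90 TPM in CK cells, with overlap (log2 change 0.16, adjusted p = 0.614). Dnajc3b had 22.6, 19.7 and 18.4 TPM in F cells against 27.2, 27.1 and 31.1 TPM in CK cells (log2 change -0.48, adjusted p = 0.0364). DNAJB9 and DNAJC3 serve BiP, the HSP70 of that compartment, and both are known targets of the unfolded protein response in mammals. Dnajc3a averaged 18.2 ± 1.73 TPM in F cells and 23.7 ± 1.19 TPM in CK cells and was not called (adjusted p = 0.0621). Dnajb11 had 93.0, 103 and 71.4 TPM in F cells against 104, 91.6 and 104 TPM in CK cells, with overlap.

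Apart from dnajb6b, no DnaJ call held with each library left out. Without CK replicate 2, the class had 0 rows called higher and 1 lower, where 6 were called higher and 3 lower with all libraries. At an unadjusted p under 0.05 with all libraries, 11 rows were higher and 4 lower, and the share of all tested rows that did so was not computed. The highest adjusted p of the called rows with 1 library left out was 0.0648 for dnaja4 and 0.0618 for dnajc5aa, and between 0.0889 and 0.150 for dnajb9, dnajc3b, dnaja2a, dnaja3a, dnajc7 and dnajc8.

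The 4 BAG rows, for exchange factors that release clients from HSP70, were not called, and none passed at an unadjusted p under 0.05 (limma). Among tested rows with an NR name, 8.3% were called higher and 7.12% lower, so 0 calls among so few rows lie near those shares. Bag3, which is heat-inducible in mammals, had 2.79, 3.71 and 2.33 TPM in F cells against 4.34, 3.81 and 3.36 TPM in CK cells, with a log2 change of -0.30 ± 0.21 (adjusted p = 0.463). The changes of bag1, bag4 and bag5 were -0.09, 0.18 and 0.02. To place the members beside other cochaperones of HSP70 and HSP90, 25 further names were looked up. Of the 22 found and tested, 5 were higher and 0 lower, against 11.6% and 9.61% of rows with an NR name averaging at least 5 TPM. Their median change was 0.20, and 1 of the 22, sugt1, is also a member. Those called included PTGES3 or p23, which holds HSP90 in its closed form (0.54, adjusted p = 0.00872), ST13 or HIP, which holds HSP70 on its client (0.57, 0.0220), the phosphatase PPP5C (0.38, 0.0227) and NUDC (0.43, 0.0212). STIP1 or HOP, the bridge between HSP70 and HSP90, had 69.9, 87.6 and 63.3 TPM in F cells against 57.0, 56.6 and 57.6 TPM in CK cells and was not called (adjusted p = 0.133). Without CK replicate 2, 0 of these cochaperones were called, and without CK replicate 1 or 3 just 1 was.

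Chaperonins had the highest median change of the classes (0.48), with 8 of 12 rows higher and 0 lower. At a mean of at least 5 TPM, 11.6% of rows with an NR name were higher and 9.61% lower. CCT, the cytosolic ring that folds actin and tubulin, is built of 8 different subunits, and a main row for each was found. All 8 rows lay higher in each F library than in each CK library, as 16.4% of all tested rows did, and 7 were called. Their summed level was 2285, 2260.5 and 2223 TPM in F cells against 1732, 1667 and 1571 TPM in CK cells, 1.36 times by the means. The zeta subunit, cct6a, showed the largest change, with 130, 122 and 119 TPM in F cells against 87.4, 82.2 and 82.0 TPM in CK cells (log2 change 0.55 ± 0.06, adjusted p = 0.00453). The most abundant subunit, eta (cct7), had 445, 468 and 440.0 TPM in F cells against 343, 312 and 310.1 TPM in CK cells (log2 change 0.49, adjusted p = 0.00917). The changes of cct8, tcp1 (the alpha subunit), cct3 and cct2 lay between 0.48 and 0.51, and that of cct5 was 0.33 (adjusted p = 0.0186). The delta subunit, cct4, had 380, 359 and 370 TPM in F cells against 327, 303 and 280 TPM in CK cells, and its change of 0.29 ± 0.08 was not called (adjusted p = 0.0645). Relative to the mean of the 8 subunits in a library, cct4 stood at 1.27 to 1.33 in F cells and 1.43 to 1.51 in CK cells, and cct6a stood at 0.427 to 0.454 in F cells and 0.395 to 0.418 in CK cells. These relative levels average 1 in each library, so a lower one has to be balanced by higher ones. With each library left out in turn, 3 to 7 of the 8 subunits were called, the fewest without CK replicate 2, and with a variance prior that does not follow the mean level 1 was called.

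The mitochondrial chaperonin HSP60, hspd1, rose more than any CCT subunit, with 145, 132 and 120.2 TPM in F cells against 76.8, 81.1 and 75.1 TPM in CK cells. It was 1.71 times the CK mean (log2 change 0.76 ± 0.08, adjusted p = 0.00383) and stayed called under every alternative. Its lid HSP10, hspe1, had 110.2, 83.4 and 111 TPM in F cells against 88.5, 91.2 and 81.9 TPM in CK cells. F replicate 2 lay inside the CK range, and the change of 0.21 ± 0.13 was not called (adjusted p = 0.382), while without F replicate 2 it was 0.34 and was called. The second rows named cct4 and cct8 held 0 to 2.66 TPM in F cells and 1.26 to 6.03 TPM in CK cells, carried no chaperonin domain and were not called.

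Prefoldin, which passes newly made actin and tubulin to CCT, had 3 of 7 rows higher and 1 lower. The shares of rows with an NR name averaging at least 5 TPM were 11.6% and 9.61%. Pfdn1 had 94.7, 109 and 107 TPM in F cells against 73.6, 72.2 and 59.8 TPM in CK cells (log2 change 0.59 ± 0.10, adjusted p = 0.0177). Pfdn2 had 111, 116 and 117 TPM in F cells against 98.3, 95.1 and 90.8 TPM in CK cells, a smaller difference (log2 change 0.27, adjusted p = 0.0379). Pfdn6 had 186, 168 and 176 TPM in F cells against 139, 132 and 153 TPM in CK cells (log2 change 0.33, adjusted p = 0.0486). Pfdn5 and the main pfdn3 row had changes of 0.28 and 0.14 without a call, and uri1, a prefoldin-like protein that binds RNA polymerase subunit RPB5, overlapped. A scarcer second pfdn3 row went the other way, with 14.5, 13.4 and 12 TPM in F cells against 21.02, 18.3 and 17.5 TPM in CK cells (log2 change -0.48, adjusted p = 0.0458). It carried no prefoldin domain. These are borderline calls: with any 1 library left out, at most 1 prefoldin row was called higher and 0 lower, and of the called rows just pfdn1 kept its call in some of these fits (adjusted p up to 0.0572), while pfdn5 was called without F replicate 2. Of the 5 tubulin folding cofactors, which take over from CCT, TBCA was higher, with 282, 313 and 308 TPM in F cells against 213, 226 and 228 TPM in CK cells (log2 change 0.43, adjusted p = 0.0130), and TBCB, TBCC, TBCD and TBCE were not called. TBCA lost its call without CK replicate 1 or CK replicate 2.

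**Figure D3:**
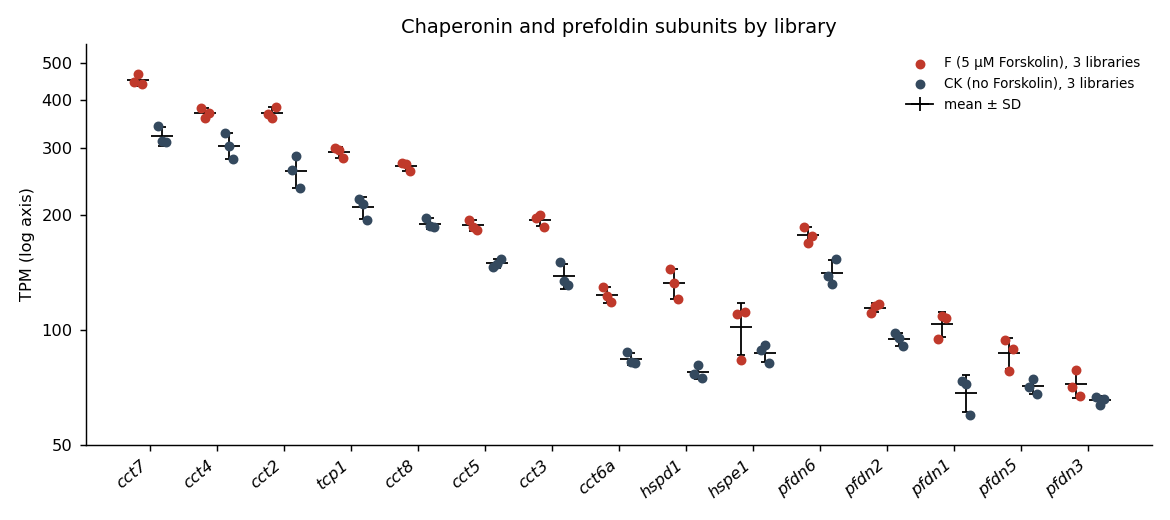
TPM of the 8 CCT subunits, the mitochondrial chaperonin and its lid, and 5 prefoldin subunits in each library, on a log axis, F left of CK, with mean ± SD over 3 libraries. In all 8 CCT subunits and in hspd1 the F points lie above the CK points, while in hspe1 an F library lies inside the CK range. Over all tested rows, F lay above CK in 16.4%.

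Small heat shock proteins had the lowest median change of the classes. All 8 rows had negative changes, at a median of -1.03, and 4 were called lower. Of these rows, hspb11 and hspb9 reached 1 TPM in CK libraries alone, so passing the minimum fixed their direction. Without them, 3 of 6 rows were called lower, at a median of -0.81. Over tested rows with an NR name, 7.12% were called lower. The summed level of all 8 rows, hspb11 and hspb9 included, was 61.5, 64.9 and 61.4 TPM in F cells against 252, 240 and 235 TPM in CK cells, 0.26 times by the means. Most of that sum was hspb1 (HSP27), which binds unfolded proteins and acts on actin filaments. Hspb1 had 42.8, 45.6 and 42.1 TPM in F cells against 204, 199 and 197 TPM in CK cells. The spread within each group was small beside the gap (log2 change -2.17 ± 0.06, adjusted p = 3.73e-05). On the log2(TPM + 1) scale, this was the largest change of any member in either direction. By the ratio of means, hspb1 stood at 0.22 times CK, and scarcer rows had lower ratios. These were hspb9 (0.09), hspb11 (0.13), a crybgx row (0.14) and a gamma-crystallin M2 row (0.21). The call of hspb1 held under every alternative, with an adjusted p of at most 0.00131 with 1 library left out. Hspb8, which works with BAG3 in clearing damaged proteins, had 9.44, 8.98 and 10.7 TPM in F cells against 18.2, 19.2 and 20.3 TPM in CK cells (log2 change -0.92 ± 0.10, adjusted p = 0.00416), and it too kept its call under every alternative.

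The alpha-crystallin rows were scarcer. The row named alpha-crystallin A chain by NR, but CRYAB by Swiss-Prot, had 2.82, 3.23 and 3.35 TPM in F cells against 10.8, 8.64 and 5.73 TPM in CK cells (log2 change -1.15 ± 0.24, adjusted p = 0.0282). The row named alpha-crystallin B chain by NR, but HSPB11 by Swiss-Prot (hspb11 here), had 0.48, 0.60 and 0.94 TPM in F cells against 8.25, 4.90 and 2.66 TPM in CK cells (log2 change -1.81 ± 0.38, adjusted p = 0.0301). It is one of the rows that passed through CK alone, so its call is given as a description. Both rows varied by more within CK than within F, and both lost their calls in each omission of 1 library but that of CK replicate 3 (adjusted p up to 0.105 and 0.102). Hspb9 was at 0 in 2 F libraries and at 0.59 TPM in the third, against 3.52, 1.33 and 1.57 TPM in CK cells, and was not called (adjusted p = 0.0736). Hspb7, a form known from heart and skeletal muscle, averaged 1.29 ± 0.70 TPM in F cells and 2.64 ± 0.54 TPM in CK cells and was not called (adjusted p = 0.210). The cryab-like and hsp30 rows overlapped between groups, with changes of -0.11 and -0.09. The 5 rows in which a small heat shock protein domain was annotated were hspb1, hspb8, hspb7 and both named alpha-crystallins.

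**Figure D4:**
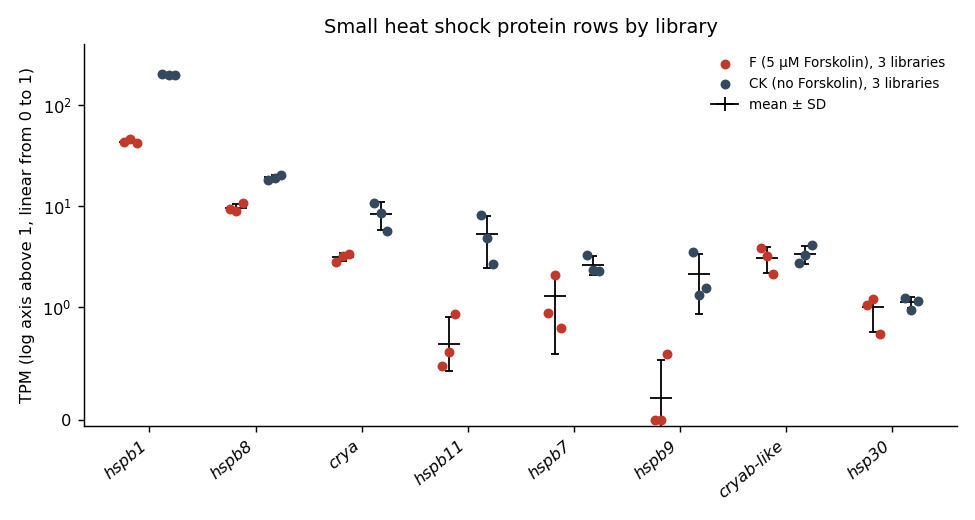
TPM of the 8 small heat shock protein rows in each library, on an axis that is logarithmic above 1 and linear from 0 to 1, F left of CK, with mean ± SD over 3 libraries. Hspb1 is near 43 TPM in F and near 200 TPM in CK. F lies below CK without overlap in 6 of 8 rows, or in 4 of 6 without hspb11 and hspb9, which passed the minimum through CK alone. Over all tested rows, F lay below CK in 15.7%.

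Markers of fibroblasts and of other cell types were looked up beside these falls. Of 5 tested epithelial markers, EPCAM was lower, with 32.5, 29.3 and 31.6 TPM in F cells against 90.5, 83.7 and 77.2 TPM in CK cells (log2 change -1.40, adjusted p = 0.000542), and KRT8, KRT18, TP63 and DSP were not called. The summed level of all epithelial rows found, untested ones included, was 5046 to 5587 TPM in F libraries and 6373 to 6578 TPM in CK libraries. Nearly all of it was KRT8 and KRT18. CLDN1 was below the minimum, and KRT5 had no row. The row read as CDH1 was also below the minimum, and NR names it neural-cadherin, so the level of CDH1 itself is unknown. All 10 fibroblast markers were tested, with 1 higher (DCN, log2 change 0.84) and 3 lower (COL1A2, LUM and THY1). Their summed level was 4039 to 6140 TPM in F libraries and 6174 to 6724 TPM in CK libraries. LUM fell more than EPCAM, with 303, 310 and 214 TPM in F cells against 1298, 1468 and 1558 TPM in CK cells (log2 change -2.40, adjusted p = 0.000745). The other fibroblast markers were not called and went both ways. COL5A1 had a change of -1.16 (adjusted p = 0.0525) and FN1 a change of 0.47 (adjusted p = 0.357). The changes of PDGFRA, VIM, PDGFRB and COL1A1 were 0.14, -0.03, -0.17 and -0.18. Desmin, the sole muscle marker with a row, reached 2.47 TPM in F and 1.53 TPM in CK at most, and 4 lens markers had no row. Of 5 leukocyte markers, PTPRC and SPI1 had no row, LCP1 was below the minimum, MPEG1 was not called and CD74 was higher, with 7.53, 7.43 and 5.89 TPM in F cells against 4.14, 4.18 and 3.25 TPM in CK cells (log2 change 0.71, adjusted p = 0.0466). The summed leukocyte level was 7.62 to 11.25 TPM in F libraries and 5.13 to 8.44 TPM in CK libraries. Of 5 pigment cell markers, 2 were tested and 0 were called by limma (0 at an unadjusted p under 0.05), with a summed level of 7.52 to 9.97 TPM in F libraries and 6.17 to 10.34 TPM in CK libraries. Most of that sum was the row read as MITF, at 4.93 to 7.79 TPM in F and 4.30 to 7.41 TPM in CK. NR names this row transcription factor E3b, so it may not be a pigment gene. The part of these markers in the changes of small heat shock proteins was not tested.

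The 11 other crystallin rows held proteins with uses outside chaperoning, and 1 was called, as lower. Over tested rows with an NR name, 7.12% were lower. Crybg1, a non-lens protein with beta/gamma crystallin domains, had 39.9, 65.9 and 35.04 TPM in F cells against 80.6, 97.2 and 99.6 TPM in CK cells (log2 change -1.01 ± 0.24, adjusted p = 0.0427). F replicate 2 stood apart from the other F libraries, and without it the adjusted p was 0.00773, while any other omission ended the call, at up to 0.130. The sugar enzyme cryl1 averaged 85.5 ± 9.29 TPM in F cells and 80.8 ± 5.47 TPM in CK cells, and crybg3 and crym (ketimine reductase) changed by -0.08 and 0.04. A crybgx row had 0, 0 and 1.17 TPM in F cells against 2.26, 2.68 and 3.18 TPM in CK cells and was not called (adjusted p = 0.0555). The 5 rows named gamma-crystallin M2, a lens protein of fish, never passed 3.88 TPM and were not called. No crystallin domain was annotated in these rows, so their identity rests on the NR name. The last 3 members matched by wording alone. A row that NR names dnaJ subfamily B is SUGT1 by Swiss-Prot, an HSP90 cochaperone, and had 71.01, 79.6 and 71.8 TPM in F cells against 64.0, 65.6 and 65.1 TPM in CK cells (adjusted p = 0.146). Tcp11l1 and tcp11l2 carry the name T-complex protein 11, are not chaperonin subunits, and changed by -0.12 and 0.04.

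Grouped by compartment and by response, the changes did not run one way. The counts of these short lists stand beside shares of 8.3% higher and 7.12% lower over tested rows with an NR name. At a mean of at least 5 TPM those shares were 11.6% and 9.61%. Of 16 names of a heat-inducible core, 12 were tested, 11 of them members, with 2 higher (hspd1 and hspa8) and 3 lower (hspb1, the CRYAB row and SERPINH1) and a median change of -0.23. The list also holds hspa8, which is known mainly as a constitutive chaperone. SERPINH1, the collagen chaperone HSP47, had 244, 217 and 237 TPM in F cells against 398, 443 and 439 TPM in CK cells (log2 change -0.87, adjusted p = 0.00201). Of 18 genes of mitochondrial folding and proteolysis, 3 were higher (HSPD1, DNAJA3 and HSPA9) and 0 lower. HSPA9, the mitochondrial HSP70, lies outside the name rule and had 95.9, 102 and 78.4 TPM in F cells against 67.3, 65.7 and 68.4 TPM in CK cells (log2 change 0.44, adjusted p = 0.0458). HSPD1 was the call of this list that held with each library left out, where 1 or 2 were called. Of 12 genes of the HSP70 system of the endoplasmic reticulum, each read from its most abundant row, HSPA13 was higher, DNAJB9 and DNAJC3 were lower (the dnajb9 and dnajc3b rows), and HSPA5 (BiP) and HSP90B1 (endoplasmin) had changes of -0.05 and -0.33 that were not called. BiP had 379, 453 and 280 TPM in F cells against 353, 392.03 and 386 TPM in CK cells, so F libraries lay on both sides of the CK range.

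Ratios within a library were compared for 14 pairs picked by hand among rows that share a protein name. Other rows of a shared name, such as the second pfdn3, cct4 and cct8 rows, were not paired. In 11 pairs the F and CK ratios did not overlap, where the smallest p of an exact two-sided permutation test is 0.1. The share of other row pairs that do so was not computed, so this count has no background. Pairs that hold a called row, such as hspa8b, dnajb6b or dnajc5aa, in part repeat that call. The log2 ratio of hspa8 to hspa8b was 6.73, 6.97 and 6.68 in F cells against 5.34, 5.40 and 5.45 in CK cells, a difference of 1.40. That of ahsa1b to ahsa1-like was 4.18, 4.87 and 3.94 in F cells against 2.73, 2.50 and 2.84 in CK cells, a difference of 1.64. For dnajc5aa to dnajc5 the difference was 1.13, for dnajb6a to dnajb6b 0.88, for dnaja3a to dnaja3b 0.72, for dnajb9a to dnajb9 0.72 and for dnaja2a to dnaja2b 0.69. The rows of hspa8 and hspa8b summed to 5414, 5839 and 5144 TPM in F cells against 3464, 3459 and 3305 TPM in CK cells, so the scarce row hardly moved the total. The pairs for dnajc3, dnajc11 and hsbp1 overlapped. Each row is an assembled gene, near-identical copies can share reads, and names come from other species (88 of the 114 members matched Megalobrama amblycephala), so a split between such rows is uncertain.

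**Figure D5:**
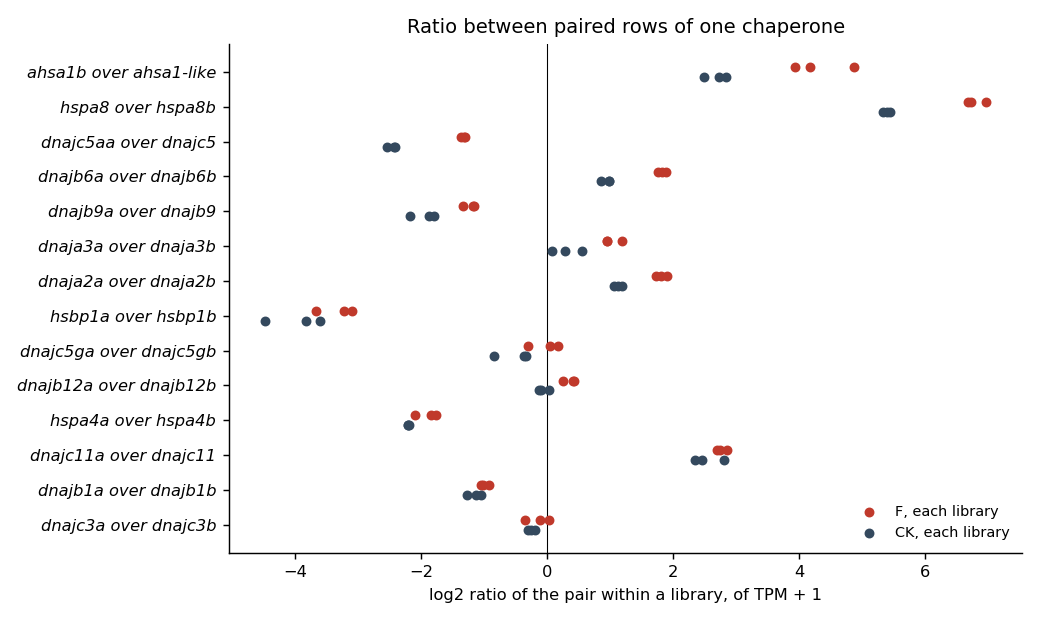
Log2 ratio of TPM + 1 between paired rows of a chaperone within each library, F above CK for each of 14 pairs. The points of F and CK do not overlap in 11 pairs, and the widest gaps are those of ahsa1b over ahsa1-like (1.64) and hspa8 over hspa8b (1.40). Pairs and their order were set by hand, and the share of other row pairs without overlap was not computed.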

How the data were processed

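RNA of 6 TCCF2022 libraries was analysed. The study's methods describe 3 biological replicates per group, TruSeq libraries, a de novo Trinity assembly and RSEM. The authors deposited TPM values per assembled gene, with protein matches; the submitters' processing notes list DESeq2 1.24.0, Cufflinks 2.2.1, TopHat2 2.1.1 and RSEM 1.3.3 with no role, whereas the study's methods credit TPM to RSEM alone. Deposited group means equal library means within 3.3e-07 TPM and were not used otherwise. TPM keeps no depth, so no counting interval can be given, and depth per library is unknown from the table; every library sums to the same total.

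Members and lists were chosen with earlier results of these data known. The 37532 rows that reached 1 TPM in 3 or more of the 6 libraries were tested on log2 values, after a pseudocount of 1, by limma (version 3.58.1, R 4.3.3; moderated with a mean-variance trend), two-sided, adjusted by Benjamini-Hochberg. The named members were, per class, the 4 with the smallest adjusted p, the 2 most abundant, those past a log2 change of 1, each member of classes of 6 or fewer and alternative forms of a named protein. The other called members, hspe1, hspb7, hspb9, hsp30, cryab-like, uri1, pfdn5, hsp70, hspa12a, hsph1, hspa1b, dnaja1, dnajb1a, dnajb1b, dnajc3a and crym were named after their values were seen, and so were crybg3, dnajc5 and the other paired rows. Lower-case names shorten the NR names, and "row 2" marks a further row of a name. The paralog pairs were picked by hand among rows that share a protein name, and the order within a pair was also set by hand.

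Tried as alternatives were each library left out in turn, summing rows that share an NR name, the replicate number as a block, moderation without the trend, quantile normalization or median-of-ratios scaling, a minimum of 5 TPM or none, and a pseudocount of 0.1. The procedure was run on simulated data with independent noise, where changes were set only in rows averaging at least 5 TPM. Changes of scarcer rows were not covered, and no outcome is given here. Tables were made in Python 3.11.15 with pandas 2.3.3, NumPy 2.4.6 and SciPy 1.17.1, and plots with matplotlib 3.10.9. No sequence could be joined to the assembled rows, so none is shown. Of the called cochaperones outside the name rule, 1 is counted but not reported here by name.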

Additional observations from a re-analysis of the deposited data

How the results depend on the processing

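With a variance prior that does not follow the mean level, 7 members were higher and 7 lower; of the lists, cochaperones then had 0 higher, mitochondrial folding 1 higher, the endoplasmic reticulum system 0 lower and tubulin cofactors 0 higher. With a minimum of 5 TPM, 1 member was higher and 3 were lower past a log2 change of 1. Without a filter, 1 mitochondrial gene was higher and 1 gene of the endoplasmic reticulum system lower, and after quantile normalization 1 heat-inducible gene was higher. No label says whether the replicate numbers pair the samples. Deviations of same-numbered libraries correlated at 0.0055, 0.009 and 0.0061, each the best match of its number though close to 0, which cannot settle it. With the replicate block, 7 members were higher and 4 lower (hspa8, hsp90ab1 and hspa13 were not called, at adjusted p of 0.0747, 0.0513 and 0.0527), 0 and 1 of them past a log2 change of 1, and the lists gave 1 higher for the heat-inducible core, 2 for cochaperones, 1 for mitochondrial folding, 0 for tubulin cofactors, and 0 higher and 0 lower for the endoplasmic reticulum system. In the class of heat shock factors and their binding proteins, 1 row was called higher with the replicate block. With 1 library left out, 5 to 18 members were higher and 4 to 8 lower, and 0 to 2 and 1 to 3 past a log2 change of 1. Over those fits, the lists ranged over 1 to 3 higher and 2 to 3 lower (heat-inducible core), 0 to 5 higher (cochaperones), 1 to 2 higher (mitochondrial), 1 higher and 0 to 1 lower (endoplasmic reticulum) and 0 to 1 higher (tubulin cofactors). Leaving out a library removes samples from a small test; the cause of the other losses was not tested.

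No called member changed sign under any of the 13 alternatives run for single members, and 6 of the 33 called members kept their call under each: hspb1, hspb8, dnajb6b, hspa8b, hspd1 and cct6a. Of all 81 uncalled members, 19 changed sign when 1 library was left out, 15 of them named in the text. The log2 changes of these 15 then ranged over -0.247 to 0.241 for crygm2 row 1 (0.0695 after quantile normalization), -0.562 to 0.203 for crygm2 row 3, -0.844 to 0.0274 for hspa1b, -1.09 to 0.183 for hsph1, -0.26 to 0.0633 for cryab-like, -0.0222 to 0.0085 for dnajb1a, -0.0179 to 0.225 for uri1, -0.0107 to 0.129 for cryl1, -0.0508 to 0.11 for hsbp1l1, -0.0439 to 0.139 for tcp11l2, -0.0304 to 0.329 for bag4, -0.0673 to 0.0736 for bag5, -0.197 to 0.0802 for bag1, -0.162 to 0.17 for crym and -0.0132 to 0.18 for dnajc11. TPM is a share of each library, so changes are relative, and no depth limit can be given.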

Other observations

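F replicate 2 was the highest F library in 68 of the 114 members, F replicate 1 in 24 and F replicate 3 in 22. Among CK libraries the counts were 46, 28 and 40 for replicates 1, 2 and 3. These counts were not made over all tested rows, so they cannot be read as a trait of the members. All members together made up 12776, 13709 and 12269 TPM in F cells against 9495, 9415 and 9190 TPM in CK cells, and without hspa8 and hsp90ab1 they made up 5688, 5917 and 5536 TPM in F cells against 4982, 4914 and 4872 TPM in CK cells.

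Of the 15 matched rows under the minimum, 1 was listed at 0 in all 6 libraries (heat shock 70 kDa protein 12B). A further hsph1 row held 8.16 TPM in CK replicate 3 and 0 in the other 5 libraries, and a row for alpha-crystallin B chain-like held 5.49 TPM in CK replicate 2 and 0 in the other 5. A class domain was annotated in 44 of 47 DnaJ rows, 8 of 12 HSP70 and HSP110 rows, 10 of 12 chaperonin rows and 6 of 7 prefoldin rows. It was annotated in 5 of 8 small heat shock protein rows and 4 of 11 other crystallin rows.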
